A study of Mus musculus with 4 samples.

Results

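The introns described here belonged to genes whose transcripts carried far more intronic than exonic sequencing counts in mouse diplotene spermatocytes. A gene was taken when its summed intron count was at least 3 times its gene count (the fragments counted on its annotated exons) in each of the Tdrd6+/- samples, and when its gene count reached 200 or more over all samples. Genes merged with an overlapping gene were left out, as were genes with fewer than 2 or more than 49 introns. Of 10209 genes within these limits, 812 (7.95%) passed. Their introns numbered 10729, of which 1363 had under 10 counts and 373 held 50% or more of their gene's Tdrd6+/- intron counts and were set aside. This left 8993 introns in 807 genes, out of 207562 introns counted in the series. The genes were thus selected on their ratio of intron to gene counts in Tdrd6+/-, which is described below without a test.

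The study sequenced RNA of diplotene cells to ask how the loss of TDRD6, a tudor domain protein of male germ cells, affects splicing. There were 2 Tdrd6+/- and 2 Tdrd6-/- samples, all from mice at 20 days post partum, and each was pooled from at least 4 mice. Cells were sorted on magnetic beads through a human CD4 protein (hCD4) expressed under the endogenous Tdrd6 promoter, which both genotypes carried. The Tdrd6+/- controls were heterozygous, so every sample had at least 1 disrupted Tdrd6 allele and no wild-type sample was compared. Since the surface tag depends on the Tdrd6 promoter, the sort selects for cells in which this promoter is active.

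In a eukaryotic gene the introns are transcribed together with the exons and are cut out by the spliceosome while the RNA is made or shortly after. Intronic fragments in an RNA library therefore come from transcripts that are still being made, from introns that stay in the RNA, and from other genes that lie inside an intron. Very long introns take long to transcribe, so a long gene can hold many unspliced fragments beside few mature ones. In meiotic spermatocytes transcription is broad, and many long genes best known from other tissues are transcribed.

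For the introns with changed usage that the results turn on, the ends of the exons they separate are shown, so that each intron can be recognised by the junction left after its removal. Each line gives the last 15 bases of the upstream exon and the first 15 bases of the downstream exon, 5′ to 3′, as joined in a GENCODE M21 transcript of mm10. The capitals mark the last 3 bases of the upstream exon and the first base of the downstream exon, where a spliced transcript carries its exon junction. Introns are numbered along the chromosome on both strands.
Etl4 intron 1: cagcctcggcccGAAGtttcgtcccctgga
Gm14152 intron 6: tttcctgcctttTAGGttcctgggtatcac
Camta1 intron 32: agccaggctgctGAGGtcttaagatttttg
Ttc28 intron 2: cccaagtggccaAAGAtgagagctgtgcgt
Tmcc3 intron 2: ggctggcaagcaTGGTgtacctattgatct
Tmtc2 intron 6: ctgctcgccttaACAGgtcgtaagagtgag
Tmtc2 intron 13: tttgccaccagtGAGCcgtgctatcaagac
Macrod2 intron 1: ggagagaggagaAAGAacgtttgctgaaga

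Of 25 introns with changed usage that could be placed and lay outside chromosome 18, 21 had an annotated transcript that joins their flanking exons directly. The upstream exon ended in G at 18 of these 21 junctions, among them those of Camta1 intron 32 and Tmtc2 intron 13. It ended in AG at 13 junctions, and the downstream exon began with G at 9.

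The total of intron counts was 9603669 to 13937818 per sample, beside 26454326 to 31388750 gene counts. Intron counts per gene count were 0.527 and 0.419 for Tdrd6+/- and 0.425 and 0.306 for Tdrd6-/-, so that Tdrd6-/- replicate 2 stood lowest. Tdrd6 itself was at 1253 and 1402 CPM (gene counts after scaling for library size) in Tdrd6+/- and at 11.4 and 12.6 CPM in Tdrd6-/- (log2 change -6.81, SE 0.170, adjusted p = 8.4e-18, edgeR quasi-likelihood test). Of 9 markers of pachytene and diplotene spermatocytes 8 were found. Their sum, Tdrd6 included, was 5278 and 5498 CPM in Tdrd6+/- and 4032 and 4257 CPM in Tdrd6-/-. Beside Tdrd6, Piwil1 was lower in both Tdrd6-/- samples and Sycp1 and Hspa2 were higher, while the groups overlapped in Sycp3, Ccna1, Aurka and Pou5f2. The sum of 6 markers of spermatogonia and early meiosis was 23.6 and 22.4 CPM in Tdrd6+/- and 27.4 and 31.55 CPM in Tdrd6-/-, with overlap in Zbtb16 and Uchl1. The sum of 6 Sertoli cell markers was 69.8 and 71.7 CPM in Tdrd6+/- and 84.7 and 89.9 CPM in Tdrd6-/-. Most of it was Clu (38.0 and 42.4 against 47.6 and 61.0 CPM), which like Amh and Rhox5 was higher in both Tdrd6-/- samples. The groups overlapped in Wt1 and Gata4, and Sox9 was lower in Tdrd6-/- (2.87 and 1.85 against 1.18 and 1.61 CPM). The sum of 6 spermatid markers was 4.19 and 6.45 CPM in Tdrd6+/- and 10.8 and 9.32 CPM in Tdrd6-/-, with Tnp1, Tnp2, Prm1, Prm2 and Tssk6 each below 1 CPM. The part of these cell types in the intron results was not tested.

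The genes rich in intronic counts had lower gene counts and longer introns than the other genes. Gene counts are the denominator of the ratio that chose the genes, so low gene counts and a high intron density are favoured by the choice and are given as a description. Their gene counts had medians of 5.66 and 5.65 CPM in Tdrd6+/- and of 5.93 and 5.29 CPM in Tdrd6-/-, against 28.6 to 30.3 CPM over the other 9397 genes within the same limits. The median summed intron length was 115 kb against 18.2 kb in the others, while exon length was 5.55 kb against 4.50 kb. Counts on annotated junctions per gene count had a median of 0.295 to 0.353 across the samples, lower in every sample than the 0.450 to 0.487 of the other genes. Per kb, intron density was 17.2 to 27.0% of exon density, against 7.404 to 10.7% in the other genes, over the 524 and 6636 genes with placed introns.

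By annotation 690 of the 812 genes were protein coding, 45 antisense and 38 lincRNA. Introns of long noncoding genes made up 4.55% of the 8993 introns and 0.974% of the introns of the other genes. The introns lay on the X chromosome in 4.27% of cases, against 2.03%. The median length of the placed introns was 4495 bp against 1384 bp, and 59.8% fell into the longest length class (over 2973 bp) against 26.8%. Counts per kb were lower, with a median of 27.95 over the 4 samples against 101. A further annotated gene lay wholly inside 7.33% of the placed introns, against 2.75%, and its fragments cannot be told apart from intronic ones by these counts.

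The ratio of intron to gene counts had medians of 6.03 and 5.43 in Tdrd6+/- and of 5.64 and 3.69 in Tdrd6-/-. Tdrd6-/- replicate 1 lay between the controls and only Tdrd6-/- replicate 2 lay below both. The other genes were at 0.490 and 0.429 in Tdrd6+/- and at 0.426 and 0.333 in Tdrd6-/-. The ratio was lowest in Tdrd6-/- replicate 2 for 722 (88.9%) of the genes rich in intronic counts and for 77.8% of the others. It was at least 3 in all samples for 523 of the 812 genes, in Tdrd6-/- replicate 1 for 752 and in Tdrd6-/- replicate 2 for 527. Selection on high ratios in the controls by itself lowers the ratio in the samples it did not use. The median log2 change of the ratio was -0.33, and without Tdrd6-/- replicate 2 it was -0.012. Replicates of 1 genotype differed as well: the ratio was at least 1.5 times higher in Tdrd6-/- replicate 1 than in replicate 2 for 443 genes (54.6%, against 21.6% of the other genes), and in Tdrd6+/- replicate 1 than in replicate 2 for 50 (6.16%, against 6.86%), where the choice held both controls at 3 or more.

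**Figure D1:**
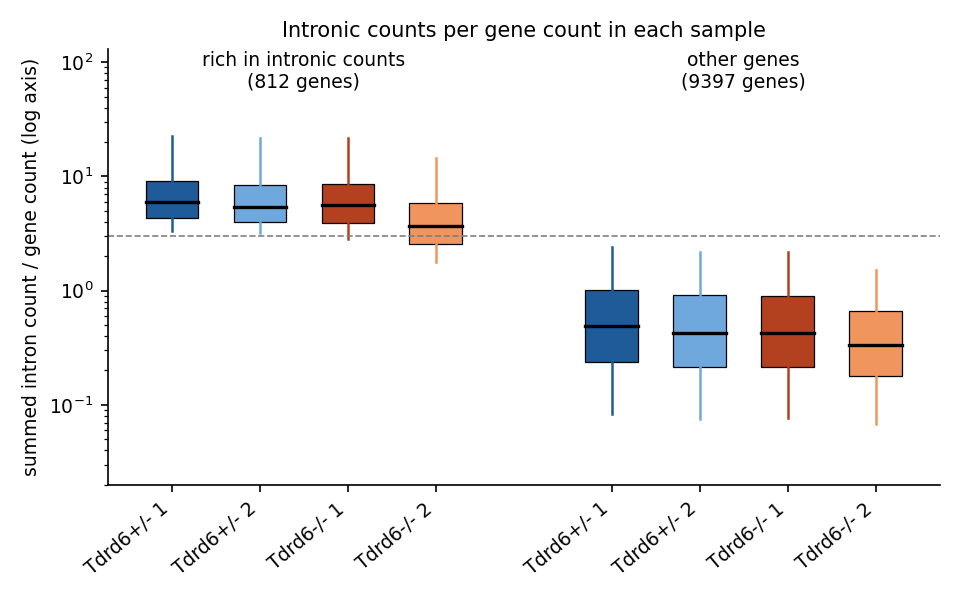
Summed intron count over gene count (log axis) in each sample, for the 812 genes rich in intronic counts and the 9397 other genes. Boxes span the quartiles, black lines are medians, vertical lines run from the 5th to the 95th percentile, and the dashed line is the threshold of 3; Tdrd6-/- replicate 2 is lowest in both sets.

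The highest ratio was that of Mageb18, an X-linked gene of the MAGE family, on chromosome X of mm10 (92118879 to 92599572, minus strand). Its intron counts exceeded its gene counts 173 and 125 times in Tdrd6+/- and 162 and 71.9 times in Tdrd6-/-. Ranked by the lower of the control ratios, Grip1, which encodes a scaffold of glutamate receptors, followed with 81.3 and 75.2 in Tdrd6+/- and 85.4 and 52.7 in Tdrd6-/-. For Fgf14, an intracellular relative of the fibroblast growth factors, the ratio was 117 and 58.3 in Tdrd6+/- and 38.6 and 20.7 in Tdrd6-/-. In Fgf14 both Tdrd6-/- samples lay below both controls, whereas in Mageb18 and Grip1 the groups overlapped. The lincRNA 4930544I03Rik, with ratios of 58.3 and 53.5 in Tdrd6+/- and 53.6 and 28.04 in Tdrd6-/-, was also among the highest 5. At the threshold, Gm13962, Slc25a18 and Osbpl5 were just inside with a lower control ratio of 3 each, and Plch2 (2.985), Gm14023 (2.986) and Wdr27 (2.998) were just outside.

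The 5 genes with the largest intron totals were Immp2l, Macrod2, Tmem242, Spag16 and Agbl4. Immp2l, a subunit of the mitochondrial inner membrane peptidase, had 4534 and 2857 intron CPM (scaled to the library's intron total) in Tdrd6+/- and 2359 and 1900 in Tdrd6-/-. Its gene count was 43.3 and 53.6 CPM in Tdrd6+/- and 47.2 and 51.0 CPM in Tdrd6-/-, so its groups did not overlap on introns and overlapped on exons. Macrod2, an ADP-ribosylhydrolase, had ratios of 36.3 and 20.8 in Tdrd6+/- and 17.3 and 10.4 in Tdrd6-/-. Spag16, a protein of the central apparatus of the sperm axoneme, had ratios of 6.47 and 3.64 in Tdrd6+/- and 2.99 and 1.76 in Tdrd6-/-, at 255 to 277 CPM. In Macrod2, Spag16 and Immp2l the ratio was highest in Tdrd6+/- replicate 1 and lowest in Tdrd6-/- replicate 2, as the intron counts per gene count of the whole libraries were. Tmem242, a mitochondrial membrane protein, had 8.92 and 8.24 in Tdrd6+/- and 9.45 and 9.63 in Tdrd6-/-, both Tdrd6-/- samples being above both controls. The ratio takes in all introns of a gene, those set aside included. Tmem242 had 25950 and 31876 intron counts in Tdrd6+/- and 34733 and 38416 in Tdrd6-/-, nearly all on the intron set aside. Its introns 2 and 3, which were kept, had 155 and 139 against 160 and 130 counts, and 6 and 11 against 7 and 19. Agbl4, a tubulin deglutamylase, had 18.5 and 10.02 in Tdrd6+/- and 8.49 and 4.66 in Tdrd6-/-.

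As a share of all intron counts of a library, the 8993 introns held 9.20 and 9.02% in Tdrd6+/- and 9.90 and 7.37% in Tdrd6-/-. The means were 9.11 ± 0.131% (SD, n = 2) and 8.63 ± 1.79% (SD, n = 2), and the controls lay between the Tdrd6-/- samples. The genes were chosen on high intron counts per gene count in Tdrd6+/-, so these shares are given as a description. An exact permutation test of 2 against 2 samples cannot give a p under 0.33 and could decide nothing here. Without Tdrd6-/- replicate 2 the difference between the genotypes turned from -0.476 to 0.792 percentage points.

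Changes of single introns were tested as usage, the counts of an intron beside those of the other introns of its gene. Usage does not depend on the gene's total and was not used by the rule beyond the removal of introns at 50% or more. A log2 change in usage is that of the intron's counts over the counts of the other introns. It is larger than the log2 change of the share printed beside it, most of all for introns with a large share. Of the 8993 introns, 2356 in 639 genes had enough counts to be tested, and 6637 lay under the mean count of 85.5 per sample that the independent filtering set. With the false discovery rate (FDR) held at 0.1, 41 of the 2356 introns (1.74%) changed usage, against a background of 1.94% (561 of 28903) over all introns tested. In Tdrd6-/- 16 were higher (0.679%, background 0.716%) and 25 lower (1.06%, background 1.22%). In both directions the share of changed introns was near the background and below it. The calls came from 34 genes, 29 of them with 1 changed intron.

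The number of calls depended on single libraries and on the settings of the test. Leaving out Tdrd6+/- replicate 1, DESeq2 called 0 introns, with 174 at an unadjusted p under 0.05, and edgeR's usage test on all samples called 1, which was not among the 41. A dispersion trend on the mean of the intron and the rest of its gene called 1, also not among the 41, and 20 were called without independent filtering. Leaving out Tdrd6-/- replicate 2 gave 3 calls, those in Etl4, Gm14152 and Ttll11. Leaving out the other replicate of each genotype gave 27 calls (Tdrd6+/- replicate 2), of which 17 were among the 41, and 69 calls (Tdrd6-/- replicate 1), of which 33 were.

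Since shares of 1 gene sum to 100%, a change of 1 intron moves the shares of the others the opposite way. Of the 34 genes, 12 also had an intron set aside for holding 50% or more of the counts, and in all 12 it changed in the direction opposite to the called intron, past the test in 10. Among the 12 genes are Camta1, Gm14152, Gm26624, Nav2 and Lin52. Gm26624 and Gm15398 have only 2 introns each, so there both tests compare the same counts and the opposite direction is fixed. The set aside introns were looked up after their values were seen.

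The size of the changes was small for most introns. The median log2 change of the tested introns was -0.0085, against 0.0039 over all introns tested, and their 5th and 95th percentiles were -0.40 and 0.40, against -0.46 and 0.46. The median absolute difference on the log2 scale was 0.12 between the Tdrd6+/- replicates, 0.14 between the Tdrd6-/- replicates and 0.11 between the genotype means, which as means of 2 samples vary less than single samples. The shares of both Tdrd6-/- samples lay on one side of both controls for 968 introns (41.1%, background 46.4%). Of these 465 were higher (19.7%, background 23.2%) and 503 lower (21.3%, background 23.2%), and all of the 41 changed introns were among them.

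**Figure D2:**
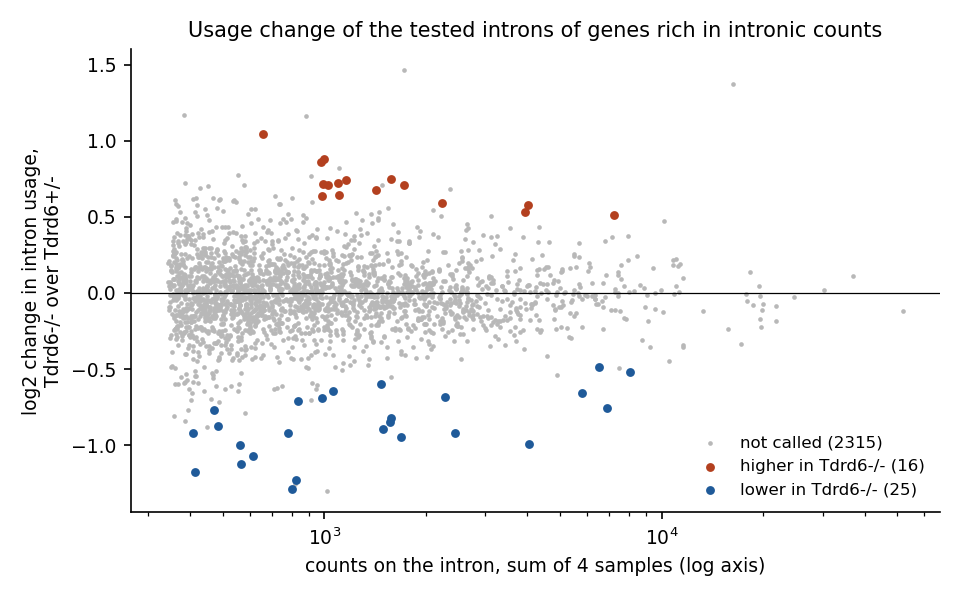
Log2 change in intron usage, Tdrd6-/- over Tdrd6+/-, against the sum of counts in the 4 samples (log axis) for the 2356 tested introns. Grey points were not called, red points (16) were called higher and blue points (25) lower at FDR 0.1; called introns span 0.49 to 1.29 in absolute log2 change.

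Introns with lower usage fell by 0.49 to 1.29 on the log2 scale, with a median size of 0.87. The lowest adjusted p was that of the first intron of Etl4, a gene known from the intervertebral disc. This intron spans 206693 bp on chromosome 2 of mm10 (19910280 to 20116972, plus strand). Out of all intron counts of the gene it held 11.4 and 11.02% in Tdrd6+/- and 4.47 and 5.50% in Tdrd6-/-, from counts of 251, 293, 165 and 93. The means of 11.2 ± 0.264% and 4.98 ± 0.730% (SD, n = 2 each) did not overlap (log2 change -1.29, SE 0.216, adjusted p = 1.45e-05, DESeq2). A snoRNA gene and 3 processed pseudogenes are annotated inside it.

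Gm14152, a lincRNA gene on chromosome 2, had lower usage of its second intron, number 6 on the chromosome (151420335 to 151425789, minus strand, 5455 bp). Its share was 5.34 and 4.602% in Tdrd6+/- and 2.83 and 2.31% in Tdrd6-/- (log2 change -0.99, SE 0.170, adjusted p = 3.16e-05). Counts there were 1662, 1129, 757 and 494, and the set aside intron 2 rose from 80.3 and 84.0% to 87.0 and 88.8% (log2 change 0.65, adjusted p = 0.016, DESeq2). The gene as a whole was at 2001 to 2235 intron CPM. For Ccdc138 intron 14 the share was 12.4 and 9.71% in Tdrd6+/- and 5.44 and 4.57% in Tdrd6-/- (log2 change -1.23, SE 0.231, adjusted p = 0.000314). Intron 5 of Ttll11, a tubulin polyglutamylase gene, held 4.96 and 4.36% in Tdrd6+/- and 1.96 and 2.50% in Tdrd6-/- (log2 change -1.12, SE 0.249, adjusted p = 0.00324). For each of these introns with lower usage both Tdrd6-/- shares were below both controls.

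Among the other introns with lower usage were those with a large part of their gene's intron counts. The second intron of Ttc28, a tetratricopeptide repeat gene, held 30.8 and 27.9% in Tdrd6+/- and 21.6 and 17.9% in Tdrd6-/- (log2 change -0.76, SE 0.167, adjusted p = 0.00324). The last intron of the lincRNA Gm26624, which contains the protein coding gene Zfp978 on the same strand, held 34.3 and 30.4% in Tdrd6+/- and 24.5 and 22.1% in Tdrd6-/- (log2 change -0.66, SE 0.162, adjusted p = 0.0125), and the gene has only 1 further intron, which holds the rest. Intron 9 of Rbpms, which encodes an RNA-binding protein, held 8.63 and 8.38% in Tdrd6+/- and 4.65 and 4.73% in Tdrd6-/- (log2 change -0.92, SE 0.210, adjusted p = 0.00494). Here the replicates of each genotype differed by far less than the genotypes.

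**Figure D3:**
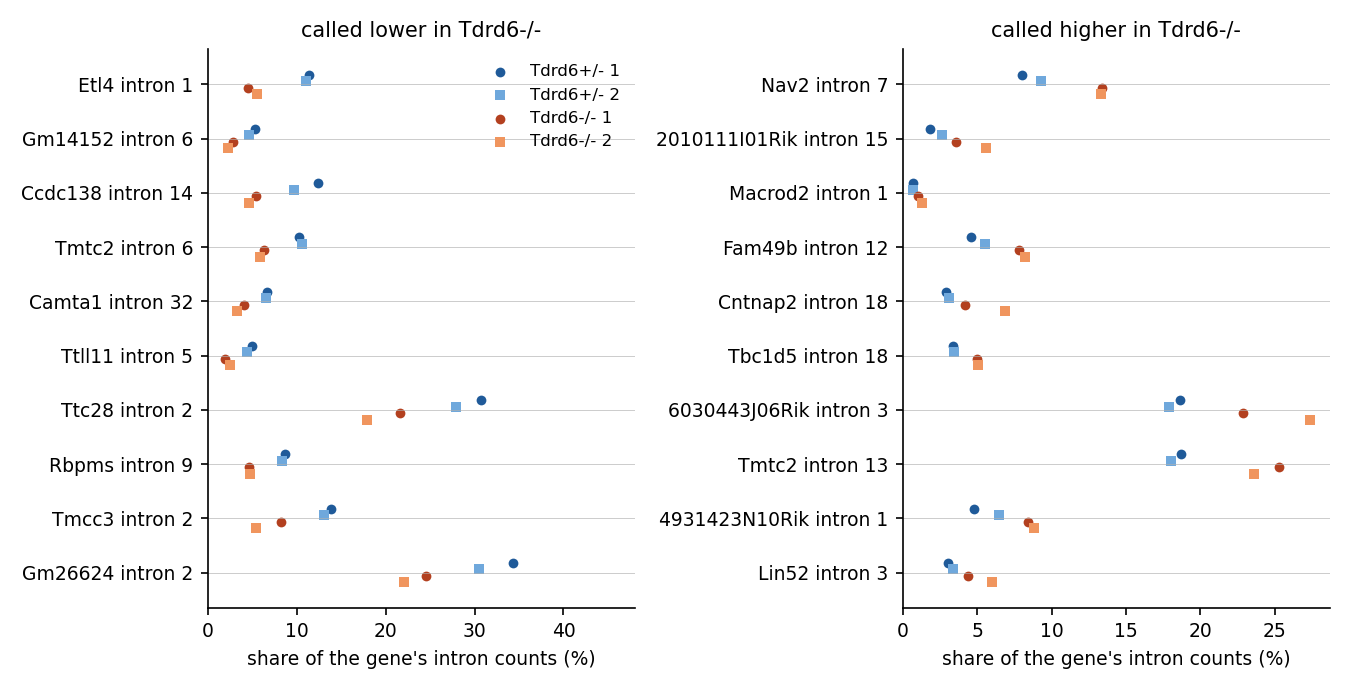
Share of the gene's intron counts (%) held by 10 introns called lower (left) and 10 called higher (right) in Tdrd6-/-, with 1 point per sample. Blue marks are Tdrd6+/- and red or orange marks Tdrd6-/- (circle replicate 1, square replicate 2), and in each intron the groups do not overlap.

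Lower usage fell on several introns of the same gene in Camta1 and Tmcc3. Camta1 encodes a calmodulin-binding transcription activator and lies on chromosome 4 (150917322 to 151861876, minus strand), so its intron 36 is transcribed first. Introns 36, 34 and 32, the first, the third and the fifth of the transcript, fell by 0.82, 0.92 and 0.90 on the log2 scale (adjusted p = 0.00624, 0.0043 and 0.00175, DESeq2). For intron 32 (151782132 to 151790407, 8276 bp) the share was 6.62 and 6.56% in Tdrd6+/- and 4.11 and 3.22% in Tdrd6-/-. The share of intron 34 was 11.97 and 9.49% in Tdrd6+/- and 7.07 and 4.95% in Tdrd6-/-. Of the other 4 tested introns of Camta1, all further downstream, none passed the test, and their log2 changes were between -0.35 and 0.11. Intron 1 of Camta1, the last to be transcribed and set aside for its size, rose from 50.3 and 51.9% to 58.7 and 69.6% (log2 change 0.79, SE 0.198, adjusted p = 0.015, DESeq2), which by itself lowers the other shares. The protein coding genes Per3 and Vamp3 lie inside this intron on the same strand, and Uts2 and an snRNA gene on the other. The part of these genes in the rise was not tested. The gene count of Camta1 was 27.2 and 27.3 CPM in Tdrd6+/- and 21.2 and 19.0 CPM in Tdrd6-/-.

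In Tmcc3, which encodes a membrane protein with coiled coils, introns 1 and 2 fell by 0.92 and 1.07 on the log2 scale (adjusted p = 0.0408 and 0.00858). The share of intron 2 was 13.8 and 13.1% in Tdrd6+/- and 8.22 and 5.37% in Tdrd6-/-, and that of intron 1 was 8.78 and 8.97% against 4.99 and 4.77%. Introns 5 and 7 had higher shares in both Tdrd6-/- samples, without passing the test (log2 change 0.38 and 0.70, adjusted p = 0.467 and 0.224). The gene count of Tmcc3 was 17.8 and 18.7 CPM in Tdrd6+/- and 12.9 and 9.95 CPM in Tdrd6-/-, so that its exonic counts too were lower in both Tdrd6-/- samples.

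Tmtc2, 4931423N10Rik and Lekr1 had introns called in both directions. Tmtc2 encodes a protein of the endoplasmic reticulum that mannosylates cadherins, and lies on the minus strand of chromosome 10. Its intron 13, the second to be transcribed (105413788 to 105535709, 121922 bp), held 18.7 and 18.02% in Tdrd6+/- and 25.3 and 23.6% in Tdrd6-/- (log2 change 0.53, SE 0.155, adjusted p = 0.0531). Intron 6, the ninth, held 10.3 and 10.5% in Tdrd6+/- and 6.29 and 5.81% in Tdrd6-/- (log2 change -0.85, SE 0.177, adjusted p = 0.00163). Intron 1, the last, fell by 0.87 (adjusted p = 0.0578). The first 3 introns to be transcribed had log2 changes of 0.45 to 0.60 and the other 8 tested introns changes of -0.87 to -0.03, and 3 of the 11 passed the test.

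In 4931423N10Rik the first intron rose by 0.67 on the log2 scale, from 4.81 and 6.46% to 8.41 and 8.83%, and intron 7 fell by 0.60, from 7.58 and 7.72% to 5.21 and 5.17% (adjusted p = 0.0548 and 0.0646). In Lekr1 the first intron, only 653 bp long, held 1.76 and 1.73% in Tdrd6+/- and 2.35 and 3.10% in Tdrd6-/- (log2 change 0.64, adjusted p = 0.0886). Lekr1 intron 8, of 33117 bp, held 13.6 and 13.1% in Tdrd6+/- and 10.4 and 9.32% in Tdrd6-/- (log2 change -0.49, adjusted p = 0.0776). The groups did not overlap in any of these introns.

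Introns with higher usage rose by 0.51 to 1.04 on the log2 scale, with a median of 0.71, and came from 16 genes. Intron 7 of Nav2, which encodes a microtubule-associated protein of growing neurites, held 8.02 and 9.26% in Tdrd6+/- and 13.4 and 13.3% in Tdrd6-/- (log2 change 0.71, SE 0.176, adjusted p = 0.0125). The set aside intron 6 of Nav2 fell from 63.2 and 55.1% to 42.9 and 45.6% (log2 change -0.88, adjusted p = 0.00157, DESeq2). Intron 15 of 2010111I01Rik had the largest rise, from 1.84 and 2.65% to 3.55 and 5.58% (log2 change 1.04, SE 0.264, adjusted p = 0.0158). The first intron of Fam49b, an interactor of the GTPase Rac1, held 4.59 and 5.49% in Tdrd6+/- and 7.83 and 8.23% in Tdrd6-/- (log2 change 0.72, SE 0.194, adjusted p = 0.0264). Both Tdrd6-/- samples were above both controls in the 3 introns with higher usage, and in 2010111I01Rik they differed from each other most.

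The remaining named introns with higher usage had small shares or small changes. The first intron of Macrod2 (140395722 to 140400861 on chromosome 2, 5140 bp) held 0.676 and 0.690% in Tdrd6+/- and 1.02 and 1.28% in Tdrd6-/- (log2 change 0.74, SE 0.194, adjusted p = 0.0219). Its counts of 394 and 227 in Tdrd6+/- and 303 and 232 in Tdrd6-/- overlapped, while the intron counts of the whole gene were 58290 and 32884 in Tdrd6+/- and 29760 and 18172 in Tdrd6-/-. Intron 18 of Cntnap2, a neurexin family adhesion gene, likewise had counts of 255, 249, 241 and 254 in the 4 samples, and its share was 2.87 and 3.10% in Tdrd6+/- and 4.16 and 6.86% in Tdrd6-/- (log2 change 0.88, SE 0.237, adjusted p = 0.0281). Intron 18 of Tbc1d5, a GTPase-activating protein for Rab7, held 3.33 and 3.46% against 4.99 and 5.05% (log2 change 0.59, SE 0.162, adjusted p = 0.0311). The third introns of the lincRNA 6030443J06Rik and of Lin52, a subunit of the DREAM complex, rose by 0.58 and 0.71 on the log2 scale (adjusted p = 0.0531 and 0.0596).

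By position, 11 of the 25 introns with lower usage and 6 of the 16 with higher usage were the first or the second of their gene. The same held for 23.1% of the 2356 tested introns, 24.6% of all introns tested and 36.2% of all introns called lower in the series. The share among all introns called higher is not given here, so the 6 of 16 have no like background. By class, 9 of 181 tested introns of long noncoding genes were called (4.97%), against 3.98% of all tested introns of such genes, and 31 of 2142 in protein coding genes (1.45%), against 1.88%. Of 63 tested introns on the X chromosome 0 were called by DESeq2 at FDR 0.1, with 2 at an unadjusted p under 0.05 and 0 called by edgeR. Over the whole series 0 of 244 X-linked introns were called, with 10 at an unadjusted p under 0.05. Of the placed introns 1405 of the tested were in the longest length class, in which 26 were called (1.85%), against 2.54% of all tested introns of that class. Introns with a gene inside on the same strand were called in 3.11% of 161 tested, against 3.40% of all such introns.

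The largest log2 changes that did not pass belonged to Cmc1, which encodes an assembly factor of cytochrome c oxidase, and to Gm17359, both chosen here after their values were seen. Cmc1 intron 1 held 23.8 and 42.1% in Tdrd6+/- and 50.7 and 62.7% in Tdrd6-/- (log2 change 1.46, SE 0.679, adjusted p = 0.415), and Cmc1 intron 2 held 36.8 and 31.5% against 23.0 and 12.6% (log2 change -1.30, SE 0.534, adjusted p = 0.296). Gm17359 intron 3 held 22.1 and 43.2% in Tdrd6+/- and 47.6 and 61.5% in Tdrd6-/- (log2 change 1.37, SE 0.771, adjusted p = 0.567). The groups did not overlap in any of the 3 introns, but the replicates of a genotype lay far apart.

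Kcnip4, which encodes a partner of voltage-gated potassium channels, had the opposite case, an intron with agreeing replicates and few counts. Its intron 12, the second to be transcribed, spans 395695 bp on chromosome 5 (48889558 to 49285252, minus strand). It contains at least 6 annotated genes, and the first 6 are mostly of unverified type. It was counted 31 and 25 times in Tdrd6+/- and 69 and 43 times in Tdrd6-/-, and its share was 0.589 and 0.683% against 2.53 and 2.49% (log2 change 2.02, SE 0.362, unadjusted p = 1.79e-08 in the DESeq2 model fitted across all introns). It lay under the mean count filter and so has no adjusted p there, and it was the one intron of these genes called by edgeR's usage test, which has no such filter and called 2 introns over the whole series. It was chosen here after its values were seen.

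Long genes, many but not all of them best known from neurons, were frequent among the genes rich in intronic counts. Of 19 genes of a list of such genes that met the gene limits, 14 passed the ratio (73.7%), against 7.95% of all genes within the limits, a pattern that follows the ratio by which the genes were chosen. Among them were Cntn6, Cntnap2, Ctnna2, Ctnna3, Dlg2, Erbb4, Kcnip4, Macrod2, Nrg3, Prkg1, Sox5, Tenm2 and Wwox. Their gene counts were 1.47 to 69.3 CPM, and 6 of them had at least 10 CPM in every sample. Ctnna3, an alpha-catenin of cell adhesion, had ratios of 24.8 and 18.6 in Tdrd6+/- and 19.4 and 11.3 in Tdrd6-/-. Ctnna2 had 28.4 and 26.7 in Tdrd6+/- and 29.3 and 16.7 in Tdrd6-/-. Of the 79 tested introns of these genes, 2 rose, in Cntnap2 and Macrod2, and 0 fell by the DESeq2 test, with 3 lower at an unadjusted p under 0.05, while edgeR called Kcnip4 intron 12 alone. Their median log2 change was -0.02, with a range from -0.59 to 0.88.

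Among 46 RNA processing genes within the limits 2 passed the ratio (4.35%, against 7.95% of all genes within the limits), the splicing regulators Mbnl1 and Rbfox2. Of 40 genes of meiotic prophase Hormad2 alone did (2.5%), which acts in the surveillance of unsynapsed chromosomes and had ratios of 3.54 and 3.33 in Tdrd6+/- and 2.58 and 1.40 in Tdrd6-/-. Of 25 genes of the flagellum and acrosome 2 did (8%), Spag16 and the acrosomal Spaca7. The tested introns of these lists numbered 7, 4 and 17. By DESeq2 and by edgeR 0 of them were called, with 0, 0 and 5 at an unadjusted p under 0.05, and their median log2 changes were -0.07, -0.0017 and 0.14. Among the genes the study measured by RT-qPCR, Cage1, Cers3, Efhb, Nipbl and Stim1 did not meet the ratio.

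**Figure D4:**
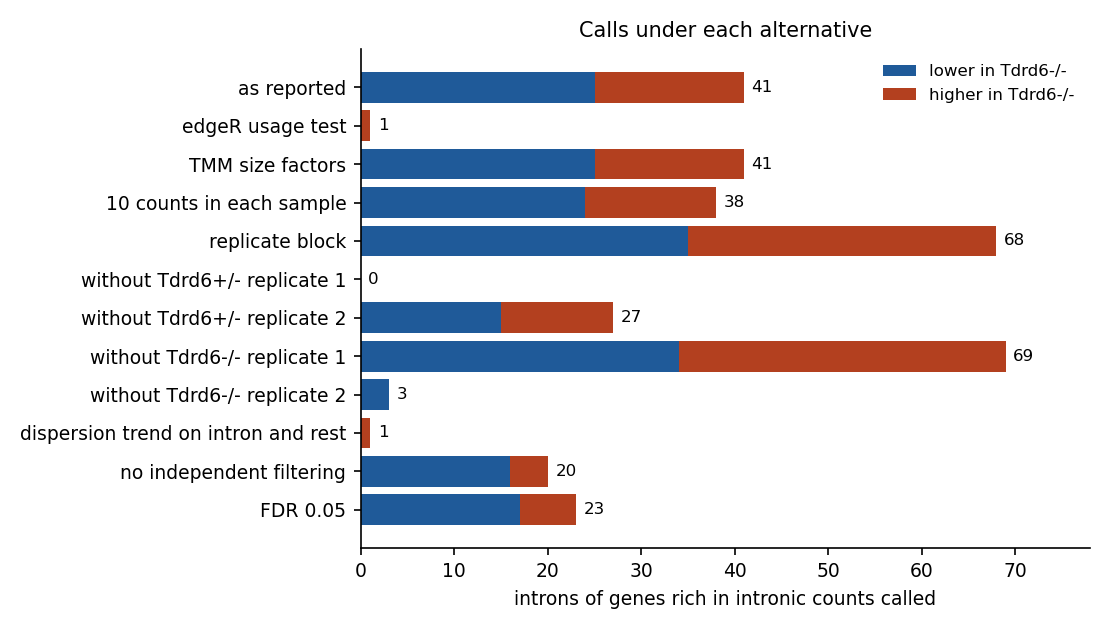
Number of tested introns of genes rich in intronic counts called under each alternative, split into lower (blue) and higher (red) in Tdrd6-/-. The count is 41 as reported and runs from 0 (Tdrd6+/- replicate 1 left out) to 69 (Tdrd6-/- replicate 1 left out).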

How the data were processed

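Paired-end RNA sequencing of diplotene cells of 2 Tdrd6+/- and 2 Tdrd6-/- samples was used. The authors aligned the reads with GSNAP (mm10, Ensembl annotation) and deposited raw counts for introns, genes, exons and junctions. The counting program and strand setting were not given in the sources used here. Genotypes and replicate numbers came from the labels. The labels do not say that replicates share a day or litter. The p-values rest on the spread between these samples together with a trend of that spread across introns or genes.

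Intron usage was modelled as in DEXSeq, which was not installed, with DESeq2 1.42.0 in R 4.3.3. Each intron with 10 or more counts entered with the sum of the other introns of its gene. The feature by genotype interaction was tested by likelihood ratio beside sample and feature terms, with dispersions trended on the intron's own mean, independent filtering and Benjamini-Hochberg adjustment over 28903 introns. Gene counts were tested with edgeR 4.0.16 (TMM), over 16555 genes for Tdrd6. A share in the text is the intron's count over the gene's summed intron count. Intron positions came from GENCODE M21, by order, where a gene's introns matched its exon gaps in number, which held for 5769 of the 8993 introns and left 3224 unplaced. As a check, log count followed log intron length within 1534 genes of the minus strand (median r 0.818) when numbered along the chromosome but not in reverse (-0.0795). The files held no genome sequence, so exon ends were read from the GENCODE transcripts.

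Named introns were, per direction, the 10 called with lowest adjusted p and groups apart (1 per gene). Named genes were the 5 with the highest ratio, most intron counts or most calls, the 3 nearest the threshold on each side, and those on the lists, of which a few are not reported here. The introns, genes and lists were chosen with earlier results of these data known. The scripts were tested on simulated data. Alternatives were another test, size factors, filters, a stricter FDR of 0.05, a replicate block, other ratios and leaving out each sample. Chi-square per degree of freedom between replicates over introns was 18.4 in Tdrd6+/- and 16.3 in Tdrd6-/-, above that of counting noise alone. These are summaries over introns, and the part of counting noise in the shares of single introns was not tested.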

Additional observations from a re-analysis of the deposited data

How the results depend on the processing

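The count of introns called was 41 (16 higher, 25 lower) with median-of-ratios factors and the same 41 with TMM factors, and 38 with 10 counts required in each sample, 37 of them among the 41. edgeR's usage test called 1 (1 higher, 0 lower, Kcnip4 intron 12). A dispersion trend on the mean of the intron and the rest of its gene, chosen after seeing the data, also gave 1 (1 higher, 0 lower), and 265 had an unadjusted p under 0.05 there. Leaving out 1 sample at a time gave 0 to 69 calls (0 to 35 higher, 0 to 34 lower). The replicate block, with replicate number as a further term, called 68 (33 higher, 35 lower), including all 41. Deviations of samples with the same number correlated by 0.0479 over 44083 introns. This cannot tell whether such samples share a day or litter, which the labels do not say. Without independent filtering 20 were called (4 higher, 16 lower), and at FDR 0.05 23 (6 higher, 17 lower). With a ratio of at least 2 there were 65 calls (29 higher, 36 lower), with a ratio of at least 5 there were 22 (6 higher, 16 lower), and with a ratio of at least 3 in all 4 samples 23 (7 higher, 16 lower). With introns of 50% or more kept there were 55.

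Over all 8993 introns the median log2 change was 0.0327, and 0.01406 to 0.05205 when a sample was left out. The median log2 change of the intron to gene ratio, -0.33, was -0.6697 to -0.01177 when a sample was left out, the smallest without Tdrd6-/- replicate 2. Of 180 values of the 20 named introns under the alternatives that refit the model, 92 kept the call, 88 lost it and 0 turned sign. The named introns were chosen with groups apart, so leaving out a sample could not turn the direction of their shares. With 2 samples per genotype, introns under a mean count of 85.5 were not tested, and the cause of these shifts was not tested.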
